A study of Mus musculus with 4 samples.

Results

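The Ly6 surface antigen cluster is a group of neighbouring genes on mouse chromosome 15, of which 7 are described here: Ly6a, Ly6c1, Ly6c2, Ly6d, Ly6e, Ly6i and Ly6k. They are 7 of the 23418 genes in the count table, and they were chosen by their read counts in the comparison of NOD.B10 with BL/10, where earlier results had shown the cluster to be much lower in NOD.B10. The differences between strains in these genes are therefore a description and carry no test. RNA was sequenced from B cells sorted out of the cervical lymph nodes, which drain the salivary glands, in 2 libraries from NOD.B10 mice and 2 libraries from BL/10 control mice. NOD.B10 is a congenic strain, NOD mice with the H2 region of C57BL/10, that serves as a model of Sjögren's disease, and the labels name BL/10 as its control. The labels give genotype and tissue but no age, sex, treatment or number of animals behind a library, and they do not say whether the replicates were separate animals, so p-values measure the spread between these libraries, which may be technical. The B cell label was checked by level, and in every library 15 B cell markers together stood above 21 T cell markers. Markers of T cells were still present, mainly in BL/10, with the values of both lists given after the Ly6 results.

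Ly6 genes encode small proteins with a three-finger fold that is held together by disulfide bonds, and most of them are attached to the outer cell surface by a lipid (GPI) anchor. Many serve as markers of blood cell types. Ly6a encodes Sca-1, found on blood stem cells and activated lymphocytes, and Ly6c1 and Ly6c2 encode the Ly6C antigen of monocytes, plasma cells and memory CD8 T cells. Ly6d marks lymphoid progenitors set on the B lineage and stays on mature B cells, while Ly6a and Ly6e are known to be induced by interferon.

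The members lie within 350 kb, from 74762056 to 75112066 on chromosome 15 of GRCm38.p6, in the order Ly6d, Ly6k, Ly6e, Ly6i, Ly6a, Ly6c1 and Ly6c2. Ly6e is transcribed from the plus strand and the others from the minus strand. Their coding sequences, taken from GENCODE M21, are between 384 and 465 bases long. Ly6c1 and Ly6c2 were identical at 387 of 396 coding bases (97.7%), and Ly6a shared 86.4% with Ly6i and about as much with the Ly6C pair (82% with Ly6c1 and 81.7% with Ly6c2). Every pair that included Ly6d, Ly6e or Ly6k was less alike, at 52.7% or below. The first 150 coding bases of Ly6c1 (chromosome 15, minus strand, GRCm38) and Ly6c2 (chromosome 15, minus strand, GRCm38) are shown because the counts of these near copies depend on so few letters, with capitals at the 6 positions that differ in this stretch out of 9 in the whole coding sequence:
Ly6c1 coding: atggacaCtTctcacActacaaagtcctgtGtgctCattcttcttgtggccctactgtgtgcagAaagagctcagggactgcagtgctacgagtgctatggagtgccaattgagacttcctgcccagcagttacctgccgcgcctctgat
Ly6c2 coding: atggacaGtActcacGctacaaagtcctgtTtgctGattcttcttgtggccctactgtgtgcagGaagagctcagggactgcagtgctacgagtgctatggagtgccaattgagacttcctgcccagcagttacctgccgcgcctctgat

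The degree of sharing sets how far reads can be assigned to a member. Of the 50-base stretches in a member's coding sequence, 46.7% in Ly6c1 and 47.6% in Ly6c2 also occurred letter for letter in a transcript of another gene, nearly always the other Ly6C gene. The share was 14.3% in Ly6a, through Ly6i, Ly6c2 and I830127L07Rik, and 9.27% in Ly6i, through Ly6a and Ly6g. It was 6.97% in Ly6k, through Gm17189 on the opposite strand, and 0% in Ly6d and Ly6e. The counts of Ly6c1 and Ly6c2 are therefore uncertain as separate values, and those of Ly6a, Ly6i and Ly6k are to a lesser degree. Read length, strand setting and the handling of reads with several alignments are not given in the sources used here.

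The start regions of the Ly6C pair were less alike than their coding sequences. RefSeq promoter windows, 250 bases before to 50 after a transcript start, were at hand for these 2 of the 7 members, and 208 of 282 aligned positions (73.8%) were identical. They are shown because these near copies had 3 reads or fewer in NOD.B10. Capitals mark bases that differ or face a gap in the aligned part. Both windows are reference sequence and do not show the start regions of the NOD.B10 mice. The part of the start regions in the strain difference was not tested. Ly6c1 is chr15:75048788-75049087 and Ly6c2 is chr15:75111922-75112221, both GRCm38.p6, minus strand:
Ly6c1 promoter: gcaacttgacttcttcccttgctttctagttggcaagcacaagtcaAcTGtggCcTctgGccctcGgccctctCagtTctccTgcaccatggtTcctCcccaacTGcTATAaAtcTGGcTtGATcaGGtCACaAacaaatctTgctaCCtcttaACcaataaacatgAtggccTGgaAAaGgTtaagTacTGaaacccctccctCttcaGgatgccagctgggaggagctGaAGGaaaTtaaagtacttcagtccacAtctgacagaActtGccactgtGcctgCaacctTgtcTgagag
Ly6c2 promoter: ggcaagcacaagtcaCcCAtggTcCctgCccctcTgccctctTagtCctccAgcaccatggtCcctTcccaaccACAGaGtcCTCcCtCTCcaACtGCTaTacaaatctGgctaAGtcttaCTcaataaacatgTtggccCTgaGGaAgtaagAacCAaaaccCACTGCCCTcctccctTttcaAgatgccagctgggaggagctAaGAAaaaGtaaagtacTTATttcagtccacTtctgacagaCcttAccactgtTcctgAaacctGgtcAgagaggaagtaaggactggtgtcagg
Neither window held the gamma-activated site TTCNNNGAA or the interferon response core (GAAA, any 2 bases, GAAA), searched on both strands. Of 17672 RefSeq promoters of genes in the table, 8% held the gamma-activated site and 3.37% the interferon response core. As most promoters lacked each motif, the absence from these 2 windows is the usual outcome and nothing is read from it. No window was at hand for Ly6a or Ly6e.

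Levels are counts per 1000000 reads (CPM) over library sizes scaled by the trimmed mean of M values (TMM), with total counts of 19328803 and 25375678 reads in the NOD.B10 libraries and 29372751 and 26150794 reads in the BL/10 libraries. The 7 members together stood at 529.5 and 546 CPM in NOD.B10, against 2071 and 2503 CPM in BL/10. Each of the 7 members was lower in both NOD.B10 libraries than in both BL/10 libraries, a pattern shown by 27.7% of the 13075 genes tested. All 7 passed the filter on low counts and were called lower in the edgeR quasi-likelihood fit at an adjusted p under 0.05, a call made for 8.63% of tested genes (15.2% in either direction). All 7 also had a fitted log2 fold change below −1.5, as did 6.62% of tested genes. Because this same contrast chose the members, nothing is read from these counts. The median fitted log2 fold change of the members, NOD.B10 over BL/10, was −2.74, and that of all tested genes was 0. In bulk RNA, fewer cells of a type and less RNA per cell cannot be told apart.

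**Figure D1:**
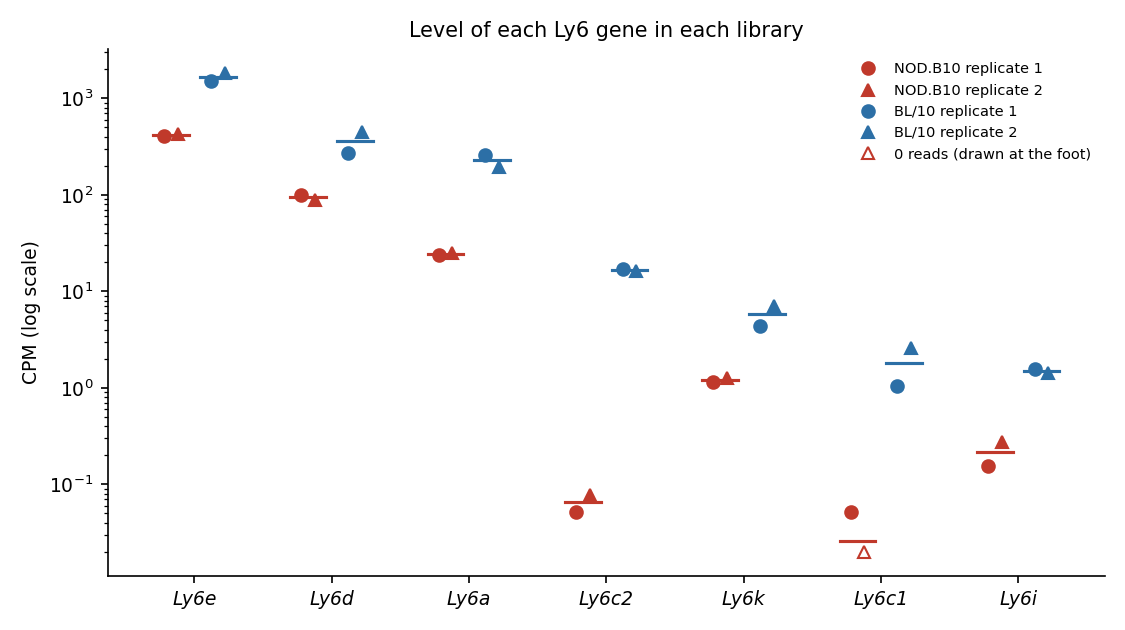
Level of each Ly6 gene in each library, in CPM on a log axis, with NOD.B10 in red to the left of BL/10 in blue. Circles are replicate 1, triangles replicate 2, horizontal bars the mean of 2 libraries and the open triangle a library with 0 reads. Every NOD.B10 point lies below both BL/10 points of its gene, as for Ly6c2, with 0.0518 and 0.0783 CPM in NOD.B10, against 17 and 16.2 CPM in BL/10.

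Ly6e (74955025 to 74959904, plus strand), an interferon-inducible antigen also known as Sca-2 or TSA-1, was the most abundant member. It had 404 and 431 CPM in NOD.B10, against 1515 and 1827 CPM in BL/10, or 418 ± 18.9 and 1671 ± 221 CPM (SD, n = 2 each). Both NOD.B10 libraries were close together and far below BL/10, and Ly6e was 3.51-fold to 4.52-fold lower over the 4 pairings of a NOD.B10 with a BL/10 library. Ly6e made up 76.4% and 78.9% of member reads in NOD.B10, against 73.1% and 73% in BL/10.

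Ly6a (74994877 to 74998031), the gene of Sca-1, had 24 and 24.9 CPM in NOD.B10, against 261 and 196 CPM in BL/10. The NOD.B10 libraries agreed within 1 CPM of each other, and Ly6a was 7.86-fold to 10.9-fold lower over the 4 pairings, a range that does not touch that of Ly6e. The means were 24.5 ± 0.673 CPM in NOD.B10 and 228 ± 45.7 CPM in BL/10 (SD, n = 2 each). Per kilobase of gene model, Ly6e exceeded Ly6a by a factor of 7.34 and 7.53 in NOD.B10, against 2.53 and 4.06 in BL/10. Ly6a accordingly made up 4.53% and 4.57% of member reads in NOD.B10, against 12.6% and 7.83% in BL/10. With 2 libraries per strain a two-sided exact permutation test cannot go below p = 0.333, and these within-library ratios are given as a description.

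Ly6d (74762056 to 74763567), the B lineage antigen, stood at 99.8 and 88.6 CPM in NOD.B10, against 272 and 453 CPM in BL/10. The strains did not overlap, but the BL/10 libraries were 1.67-fold apart, so that Ly6d was between 2.72-fold and 5.11-fold lower depending on the pairing. The means were 94.2 ± 7.95 CPM in NOD.B10 and 362 ± 128 CPM in BL/10 (SD, n = 2 each). Per kilobase, Ly6d and Ly6e were near each other in every library, with Ly6e above Ly6d by a factor of 1.22 and 1.46 in NOD.B10, against 1.68 and 1.21 in BL/10.

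Ly6c2 (75108161 to 75112066), of the Ly6C pair, had 1 and 2 reads in NOD.B10, against 503 and 419 reads in BL/10. This was 0.0518 and 0.0783 CPM in NOD.B10, against 17 and 16.2 CPM in BL/10. On summed reads Ly6c2 was 249-fold lower in NOD.B10, with a 95% counting interval (exact conditional binomial) of 84.8 to 1208. The 2 BL/10 libraries were within a few percent of each other, and the strains did not overlap. Ly6c1 (75044018 to 75048920) had 1 and 0 reads in NOD.B10, against 31 and 66 reads in BL/10. It was 78.5-fold lower on summed reads, with a 95% counting interval of 13.8 to 3132 that takes in the whole of the Ly6c2 interval. The 0 reads in the second NOD.B10 library allow up to 0.117 CPM (3 reads), which lies below the 1.05 and 2.56 CPM of Ly6c1 in BL/10. In BL/10 the Ly6c2 level was 16.2 and 6.35 times that of Ly6c1, a ratio that rests on how reads of the near copies were assigned. These intervals and limits take in the error of counting and no other.

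The remaining members were scarce in both strains. Ly6k (74796874 to 74799968), a testis antigen needed for sperm migration, had 1.14 and 1.25 CPM in NOD.B10, against 4.39 and 7.13 CPM in BL/10, and was 3.5-fold to 6.26-fold lower. Ly6i (74979534 to 74983434), closest in sequence to Ly6a, had 3 and 7 reads in NOD.B10, against 46 and 37 reads in BL/10, and was 6.72-fold lower on summed reads (95% counting interval 3.47 to 14.5). For both genes the strains did not overlap. A handful of reads decides the NOD.B10 value of Ly6i, while Ly6k had 22 and 32 reads in NOD.B10.

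Compared per kilobase of gene model, which allows levels to be set between genes, the order was the same in both strains except for the place of Ly6c2. In NOD.B10 it ran Ly6e (176 and 187 CPM per kb), Ly6d (144 and 128), Ly6a (23.9 and 24.9), Ly6k (1.47 and 1.62), Ly6i (0.177 and 0.312), Ly6c2 (0.0647 and 0.0978) and Ly6c1 (0.0315 and 0). In BL/10 it ran Ly6e (658 and 794 CPM per kb), Ly6d (393 and 655), Ly6a (260.3 and 196), Ly6c2 (21.2 and 20.3), Ly6k (5.68 and 9.22), Ly6i (1.77 and 1.63) and Ly6c1 (0.636 and 1.55). Ly6c2 was thus in the fourth place in BL/10 and next to last in NOD.B10. Neighbours in the order did not overlap over the libraries of a strain. In BL/10 the ranges of Ly6e and Ly6d nearly touched (658 CPM per kb in the lower Ly6e library, 655 in the higher Ly6d library), as did those of Ly6i and Ly6c1 (1.63 and 1.55). In NOD.B10, Ly6c2 with 3 reads and Ly6c1 with 1 read cannot be ordered at this depth. The BL/10 replicates differed in opposite directions among members. The first BL/10 library was 1.33 times the second in Ly6a, while the second was 1.67 times the first in Ly6d, 1.62 times in Ly6k and 2.44 times in Ly6c1.

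**Figure D2:**
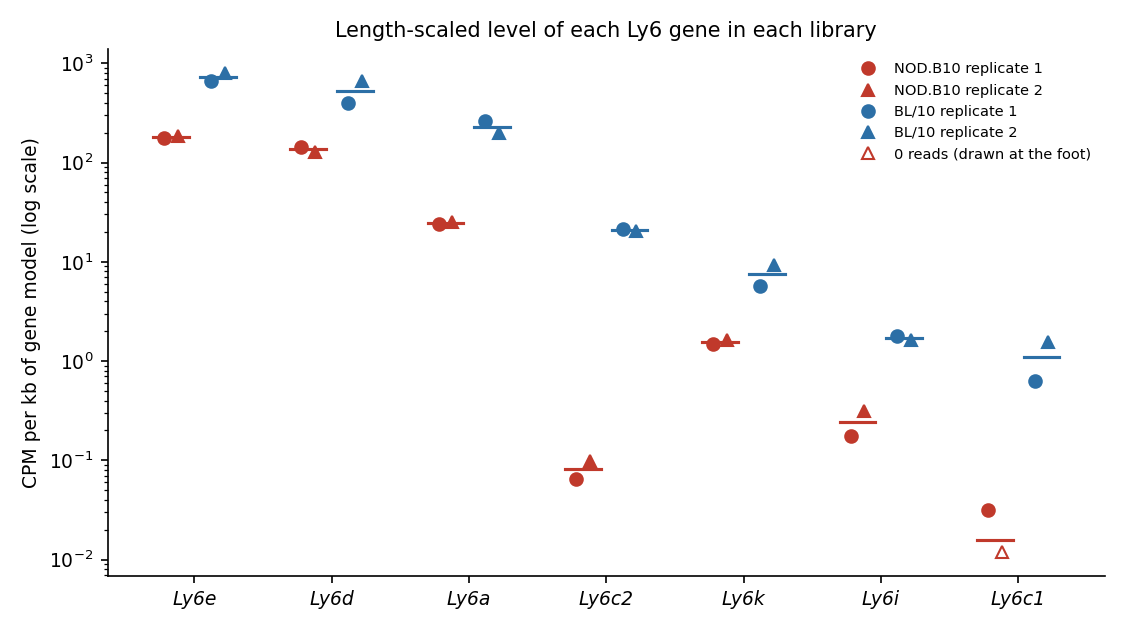
Level of each Ly6 gene divided by the length of its gene model, in CPM per kb on a log axis, with NOD.B10 in red to the left of BL/10 in blue. Circles are replicate 1, triangles replicate 2, bars the mean of 2 libraries and the open triangle a library with 0 reads. Ly6e, Ly6d and Ly6a hold the first places in both strains, while Ly6c2 stands at 21.2 and 20.3 CPM per kb in BL/10 and below Ly6k and Ly6i in NOD.B10.

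Genes next to the cluster, which the rule of choice did not list, were tested in the same edgeR fit across all genes. The cluster was chosen from these same data, so the calls of its neighbours may not be independent of that choice. Of 25 tested neighbours within 1000000 bases of the members, 6 were called lower (24%) and 1 higher, against 8.63% lower and 6.55% higher among all tested genes. Most of the genes called lower lay on the side of Ly6d, but side and distance cannot be told apart here. Every tested gene before the span lies nearer to the members than any tested gene beyond Ly6c2, where the first is 503 kb away. Before the span of the members 4 of 6 tested genes were lower, inside it 1 of 1, and beyond Ly6c2 1 of 18. Without the second BL/10 library the count for the window fell to 4, all lower, with Slurp1 (adjusted p = 0.235), Arc (adjusted p = 0.063) and the higher Fam83h (adjusted p = 0.0928) no longer called. Within 500000 bases, where no gene beyond Ly6c2 was tested, the count was 5 lower of 7 tested. Within 2000000 bases it was 8 lower and 4 higher of 74.

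Lynx1, which encodes a Ly6-type modulator of nicotinic acetylcholine receptors, lies just before Ly6d (74747856 to 74752979). It fell to 14.2 and 14.5 CPM in NOD.B10, against 113 and 138 CPM in BL/10 (log2 fold change −3.12, SE 0.143, edgeR adjusted p = 1.12e-08). Its strains did not overlap, and its fall was close in size to that of Ly6a. Slurp1 (74726644 to 74728023), a secreted Ly6-type protein of skin, fell to 5 and 7 reads in NOD.B10, against 35 and 52 reads in BL/10 (log2 fold change −2.56, SE 0.693, edgeR adjusted p = 0.0226). Inside the span, the gene listed as 2010109I03Rik, which RefSeq names Ly6m, had 2 and 0 reads in NOD.B10, against 56 and 44 reads in BL/10. It was 40.5-fold lower on summed reads, with a 95% counting interval of 10.9 to 339 (edgeR adjusted p = 0.00244).

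Outside the Ly6 family, Them6 (74721234 to 74724373), next to Slurp1, fell to 10.6 and 9.47 CPM in NOD.B10, against 29 and 37.3 CPM in BL/10 (log2 fold change −1.72, SE 0.186, edgeR adjusted p = 2.86e-05). Arc (74669081 to 74672570), an activity-regulated gene best known from neurons, fell to 0.881 and 0.548 CPM in NOD.B10, against 2.9 and 4.84 CPM in BL/10 (log2 fold change −2.45, SE 0.498, edgeR adjusted p = 0.00454). Jrk lies between Arc and Them6 and was chosen after its values were seen. It was not called, with 33.2 and 36.2 CPM in NOD.B10, against 32.9 and 37.2 CPM in BL/10 (log2 fold change −0.02, SE 0.144, edgeR adjusted p = 0.962). The unnamed model that overlaps Jrk, 4933427E11Rik, was not called either. Them6, which was called lower, starts 11.9 kb after the end of Jrk.

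Beyond Ly6c2 the nearest gene with enough reads for the test was Zfp41, 503 kb away, and it was not called (8.55 and 12.8 CPM in NOD.B10, against 11.4 and 12.1 CPM in BL/10, edgeR adjusted p = 0.788). Of the 18 tested genes on that side, 16 were not called, with fitted log2 fold changes between −1.96 and 0.43. Mafa, a transcription factor of pancreatic beta cells, had 0 reads in both NOD.B10 libraries, against 28 and 21 reads in BL/10, and was at least 13.2-fold lower (3 reads over the group as the limit, edgeR adjusted p = 0.0055). Fam83h, known from enamel formation, rose to 4.04 and 4.82 CPM in NOD.B10, against 1.76 and 1.05 CPM in BL/10 (log2 fold change 1.65, SE 0.415, edgeR adjusted p = 0.0154). The genes between Ly6c2 and Zfp41 had 6 reads or fewer in each library and were not tested.

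**Figure D3:**
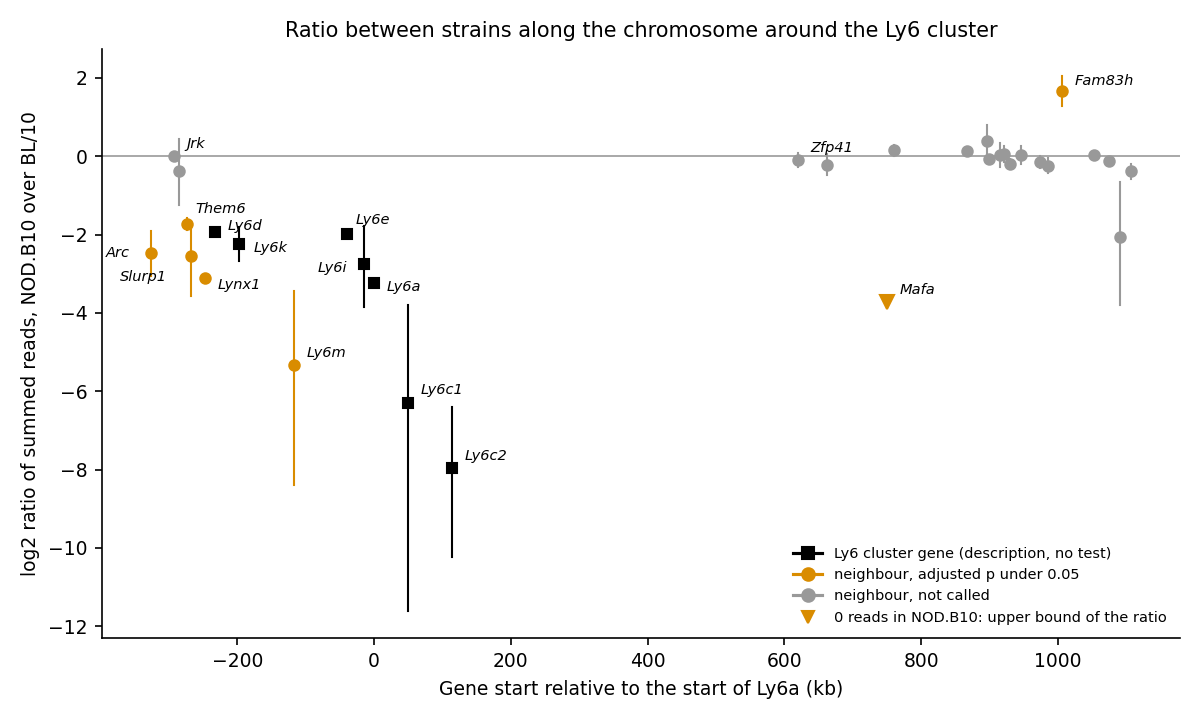
Ratio of summed reads, NOD.B10 over BL/10, on a log2 scale for each tested gene within 1000000 bases of the cluster, against the distance of its start from the start of Ly6a in kb. Black squares are the 7 Ly6 genes, orange points neighbours with an adjusted p under 0.05, grey points neighbours not called, vertical lines 95% counting intervals, and the triangle the upper bound for Mafa with 0 reads in NOD.B10. The neighbours Them6, Slurp1, Lynx1 and Ly6m lie below zero, while Jrk and most genes from Zfp41 onwards lie near zero.

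Few other genes of the same protein family had enough reads for the test. Of 43 listed relatives, 34 were in the table, 22 had reads and 6 were tested. Of these 6, 4 were called lower and 0 higher in NOD.B10, against 8.63% lower and 6.55% higher among all tested genes. Of those 4, Lynx1, Slurp1 and Ly6m are the neighbours described above and are counted there as well. On other chromosomes 3 relatives were tested and 1 was called lower, too few to set beside the share of all genes. This was Lypd6b on chromosome 2, a Ly6-type modulator of acetylcholine receptors, with 0 reads in both NOD.B10 libraries, against 26 and 36 reads in BL/10, at least 16.7-fold lower (edgeR adjusted p = 0.00309). Plaur on chromosome 7, the urokinase receptor, was not called, with 119 and 104 CPM in NOD.B10, against 104 and 93 CPM in BL/10 (log2 fold change 0.18, SE 0.12, edgeR adjusted p = 0.385). Ly6g5b in the H2 region of chromosome 17 was not called either (6 and 20 reads in NOD.B10, against 39 and 24 reads in BL/10, edgeR adjusted p = 0.392). The complement inhibitor gene Cd59a had 4 and 3 reads in NOD.B10, against 22 and 9 reads in BL/10, and did not reach the test.

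Markers of other cells that carry Ly6 antigens moved in the same libraries. Of 21 T cell markers, 20 were called lower in NOD.B10 (95.2%) and 0 higher, against 8.63% lower and 6.55% higher among all tested genes. Their median log2 fold change was −5.30, and their summed level was 229.6 and 215 CPM in NOD.B10, against 815 and 939 CPM in BL/10. Trat1 was the 1 marker at 0 reads in NOD.B10, and most of what remained came from Cd2 and Lck. Bcl11b, which sets T cell identity in the thymus, fell to 0.674 and 0.431 CPM in NOD.B10, against 57.2 and 66.1 CPM in BL/10 (log2 fold change −6.83, SE 0.239, edgeR adjusted p = 9.53e-10). The T lineage factor Tcf7 and the costimulatory receptor gene Cd28 fell as well, with log2 fold changes of −5.07 and −6.39 (edgeR adjusted p = 8.51e-09 and 1.09e-08). T cells are known to carry Ly6A, Ly6C and Ly6E, and the part of T cell RNA in the Ly6 differences was not tested.

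Of the other lists, 6 of 7 tested natural killer and cytotoxic markers, 3 of 8 dendritic cell markers, 2 of 15 monocyte and macrophage markers, 2 of 6 neutrophil markers and 2 of 14 plasma cell genes were called lower, and 0 of them higher, against 8.63% lower among all tested genes. The shares of monocyte and macrophage markers (13.3%) and of plasma cell genes (14.3%) lie near that background. Several of these counts hang on 1 library: plasma cell genes had 0 lower and 1 higher without the first BL/10 library and 4 lower without the second. Monocyte and macrophage markers had 1 lower without the second BL/10 or the second NOD.B10 library and 5 without the first NOD.B10 library. Neutrophil markers had 1 lower without the second BL/10 library and 4 without the second NOD.B10 library. Dendritic cell markers had 2 lower and 1 higher without the second BL/10 library, and natural killer markers had 4 lower without it. Natural killer markers summed to 8.96 and 7.4 CPM in NOD.B10, against 21 and 35.8 CPM in BL/10, with Klrd1, Klrk1, Klre1, Gzma and Gzmb at 0 reads in NOD.B10. Monocyte and macrophage markers, of cells rich in Ly6C, summed to 53.8 and 34.1 CPM in NOD.B10, against 62.4 and 68.4 CPM in BL/10, with none at 0. Of that list, Ccr2 was called lower, with 7 and 2 reads in NOD.B10, against 75 and 129 reads in BL/10. Csf1r was called lower too, with 68 and 51 reads in NOD.B10, against 180 and 176 reads in BL/10. The other 13 tested genes of the list were not called. Plasma cell genes summed to 1099.6 and 1015 CPM in NOD.B10, against 1848 and 1108 CPM in BL/10. Also at 0 reads in NOD.B10 were the neutrophil markers Ltf, Retnlg, S100a8 and S100a9 and the dendritic cell marker Batf3. Of 16 endothelial and stromal markers with reads in BL/10, 5 (Col1a2, Esam, Pdgfra, Pdpn and Vwf) had 0 reads in NOD.B10. Of the 19 listed, 5 were tested and 1 was called higher. The list summed to 419 and 429 CPM in NOD.B10, against 372 and 361 CPM in BL/10. The called gene, Pdgfrb, had 29 and 18 reads in NOD.B10, against 0 and 2 reads in BL/10. That call, of Pdgfrb, was lost without the first BL/10 library (edgeR adjusted p = 0.0976) and without the first NOD.B10 library (edgeR adjusted p = 0.0621). Genes of marginal zone, B-1 and age-associated B cells gave 7 lower (41.2%) and 2 higher of 17, against 8.63% lower and 6.55% higher among all tested genes. That list shares Cd5 with the T cell list, Itgax with the dendritic cell list, and Tbx21, Itgam and Mzb1 with others. Cd5 and Itgax were called lower and are counted in each of their lists. B cell markers summed to 14387 and 14739 CPM in NOD.B10, against 12887 and 13373 CPM in BL/10, and of 15 genes 0 were lower and 1, Fcer2a, was higher, with 2 to 6 higher and 0 lower when 1 library was left out (6 without the second BL/10 library). The part of these lists in the Ly6 differences was not tested.

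Interferon-inducible genes, the class to which Ly6a and Ly6e belong, were lower in NOD.B10 in large part. Of 59 tested, 38 were called lower (64.4%) and 0 higher, against 8.63% lower and 6.55% higher among all tested genes. Their median log2 fold change was −0.75, and their summed level was 4558 and 4898 CPM in NOD.B10, against 6511 and 6317 CPM in BL/10. Oas3, which makes the messenger that activates RNase L, fell to 7.56 and 7.13 CPM in NOD.B10, against 60.3 and 57.2 CPM in BL/10 (log2 fold change −3.0, SE 0.157, edgeR adjusted p = 3.3e-08). Rsad2, which encodes viperin, had the log2 fold change −5.58 and Eif2ak2, which encodes the kinase PKR, −2.26 (edgeR adjusted p = 3.55e-08 and 9.36e-08). The part of an interferon response in the Ly6 differences was not tested, nor was the cell type that these transcripts came from.

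**Figure D4:**
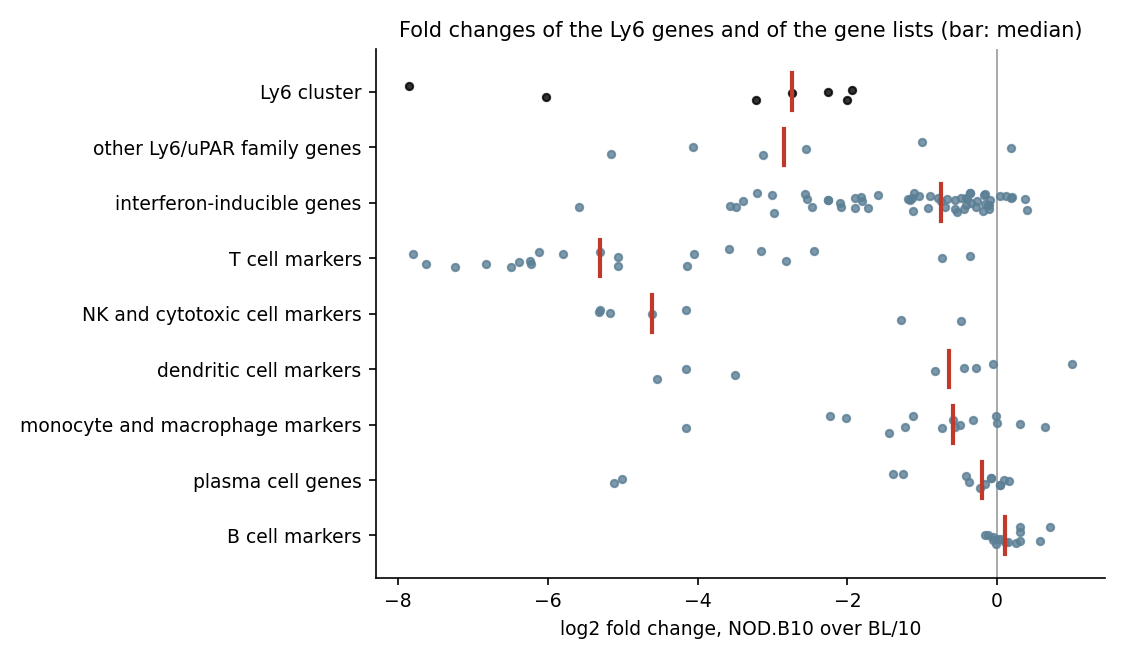
Fitted log2 fold changes, NOD.B10 over BL/10, of the 7 Ly6 genes (black) and of the tested genes of 8 lists (blue), with red bars at the medians, which are the same to 2 decimals with the fitted values of all genes. Genes with 0 reads in NOD.B10 are drawn at their bound against 3 reads over the group. The medians are −2.74 for the Ly6 genes, −5.30 for T cell markers, −0.75 for interferon-inducible genes and 0.11 for B cell markers.

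The genes with the profiles most like each member were found by the sum, over the 4 libraries, of absolute differences in log2(CPM + 0.5) centred on the gene's mean, among named genes whose average log2 CPM reached 3. Nearest to Ly6a were the interferon-inducible Oas2 (distance 0.172), the potassium channel gene Kcnn4 (0.407) and the interferon-inducible Ifit1 (0.453). Oas2 had 2.02 and 2.04 CPM in NOD.B10, against 28.3 and 20.1 CPM in BL/10, and like Ly6a it was higher in the first BL/10 library. Nearest to Ly6e were Rpl35a (0.253), the interferon-inducible Oasl2 (0.345) and Anxa6 (0.365). Nearest to Ly6d were Rpl21 (0.2), Celsr1 (0.319) and Bpgm (0.481), and nearest to Ly6c2 were Cd28 (0.495), Nsg2 (0.666) and Cd8a (0.743). Cd28 and Cd8a are T cell genes, with 0.311 and 0.392 CPM of Cd28 in NOD.B10, against 33.3 and 27.1 CPM in BL/10. Ly6k had Ly6d as its nearest profile (0.361). The 0.5 CPM pseudocount shrinks the profiles of scarce genes: the log2 fold change of mean levels became −4.92 for Ly6c2 and −1.88 for Ly6k, against fitted values of −7.85 and −2.26. The pseudocount exceeds the 0.0518 and 0.0783 CPM of Ly6c2 in NOD.B10, so the likeness of Ly6c2 to Cd28, Nsg2 and Cd8a depends on it. For Ly6c1 and Ly6i the pseudocount sets most of the profile, and their nearest genes, none on the T cell list, are not given. All these distances rest on 4 libraries in 2 strains and mostly reflect the size of the strain difference. The members were chosen by that difference, so likeness in profile is a description, and shared regulation was not tested.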

How the data were processed

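Per the submitters' processing notes, the authors used HISAT2 2.1.0, SAMtools 1.3, Subread 1.6.5 and featureCounts with build mm10. They deposited raw read counts per gene symbol for 4 libraries, with a gene model length. The header of that column reads Length and states no unit, and bases are assumed here. The annotation and strand setting are not given in the sources used here, nor is what was done with reads that align to several places. The build is the C57BL/6J genome, and the effect of NOD sequence differences on read assignment was not tested.

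Counts were compared with edgeR 4.0.16 in R 4.3.3 (glmQLFit with robust dispersion, glmQLFTest, two-sided, TMM, prior count 0.125). The filter filterByExpr (minimum count 10, minimum total 15) left 13075 of 23418 genes, and p-values were Benjamini-Hochberg adjusted over all of them, with a call under 0.05. SE is the size of the unshrunken fold change over the square root of F. Symbols were matched to RefSeq genes of GRCm38.p6, 21571 directly and 1663 by synonym. Coding sequences came from GENCODE M21 and were aligned with Biopython 1.88. The test was checked on simulated counts.

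The members and lists were chosen with earlier results of these data known. Genes named are the members, relatives with at least 10 reads in 1 library, and called neighbours with the nearest tested gene on each side. Up to 3 called genes per list and the 3 nearest profiles were chosen as well. Called genes are given for the T cell, interferon, B cell, monocyte and macrophage, and stromal lists, with other lists mainly as counts. Nearest profiles are not given for Ly6c1 and Ly6i, and 1 is given for Ly6k. Alternatives were RLE, upper-quartile and no scaling factors, no filter and a stricter one (1 CPM in 2 libraries), DESeq2 1.42.0, limma-voom (limma 3.58.1), dispersion that was not robust, a replicate block and each library left out.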

Additional observations from a re-analysis of the deposited data

How the results depend on the processing

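The 7 members were lower in NOD.B10 in all 70 values recomputed, from 10 alternatives for each member. The filter settings, limma-voom and the dispersion that was not robust were not recomputed for them. Because the members were chosen by this contrast and did not overlap between strains, that outcome was set in advance and adds no support. Their median log2 fold change of −2.74 lay between −3.22 and −2.44 with 1 library left out, and was −2.0 with a pseudocount of 0.5 CPM on mean levels, which moved Ly6c1 to −2.13, Ly6c2 to −4.92 and Ly6i to −1.48, as such a pseudocount does to genes with few reads. Leaving out 1 library spread Ly6c1 from −8.61 to −4.98 and Ly6a only from −3.42 to −3.0. Of the neighbours, between 4 and 7 were called with 1 library left out and 12 within 2000000 bases. The counts of all genes, of relatives, of interferon-inducible genes and of T cell markers stayed within 1.5 times in every alternative. Without the first NOD.B10 library, 67.7% of calls over all genes were lower, against 56.8% with every library. Leaving out libraries for the other marker lists was added after seeing the data. Slurp1 was also not called with limma-voom (adjusted p = 0.0508). Jrk, not called anywhere, had a log2 fold change of 0.07 without the second BL/10 and 0.04 without the first NOD.B10 library, and a range of −0.10 to 0.07 with 1 library left out, while Zfp41, also not called anywhere, ranged from −0.46 to 0.11 and was 0.11 without the first NOD.B10 library.

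Replicate numbers are shared between strains, but the labels do not say that they mark a litter or day, and the differences between replicates 1 and 2 were not correlated across 13075 genes (r = −0.011). With a replicate block 1802 genes were called, 7 neighbours, 4 relatives, 35 interferon-inducible genes and 18 T cell markers, and the median of the members was −2.76. Where a strain was left with 1 library, that library is assumed to vary like the other strain. Depth limits Ly6c1, Ly6c2 and Ly6i, with 10 reads or fewer in NOD.B10.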

Other observations

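Of the relatives of the Ly6 genes, Ly6g6e in the H2 region of chromosome 17 had 0 and 14 reads in the NOD.B10 libraries, against 0 and 0 reads in BL/10, so that all its reads came from a single library. Spaca4, of the sperm acrosome, had 11 and 4 reads in NOD.B10, against 10 and 4 reads in BL/10. Gml, next to Ly6k, had 2 and 0 reads in NOD.B10, against 10 and 5 reads in BL/10. These genes did not pass the filter on low counts and were not tested.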
